A study of Mus musculus with 8 samples.

Results

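Ear skin expression of 6 genes of the oxygen-sensing pathway is described here in adult mice that lost the corneodesmosin gene Cdsn from the epidermis: the hypoxia factor gene Hif1a and the oxygen-regulated genes Egln3, Vegfa, Pgk1, Slc16a3 and Fam162a. They were taken by gene symbol from the authors' deposited table of probe sets that differed between KO and WT, which names 3024 genes after the probe set with the highest mean was kept for each. Each of the 6 genes had 1 probe set there, 6 of the 33793 measured. They were thus selected on the KO against WT difference itself: the table requires 0.5 log2 units in either direction together with an adjusted p below 0.05, so every gene in it differed between the groups by construction. The differences of the 6 genes are therefore given as a description, with no test.

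The KO group was 4 mice of genotype KRT14-CreERT2(tg/0)/Cdsnfl/fl and the WT group was 4 mice of genotype KRT14-CreERT2(tg/0)/Cdsnwt/wt, each on its own array, with C57B/6J given as the genetic background. Both groups carried the tamoxifen-inducible recombinase, and both were treated on both ears with 4-hydroxytamoxifen, 100 µg per ear and day for up to 15 days, from an age of 7 to 12 weeks. The KRT14 promoter drives the recombinase in keratinocytes, so the vessels, cartilage, muscle and immune cells that the ear also holds are not its target. RNA came from whole ear skin, and a change in the number of cells of a type cannot be told apart from a change in RNA per cell.

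Hypoxia-inducible factor is a dimer of an oxygen-regulated alpha subunit and a stable beta subunit. In oxygenated cells prolyl hydroxylases mark the alpha subunit for destruction by the von Hippel-Lindau ubiquitin ligase, and when oxygen is low the subunit accumulates and activates genes for glucose breakdown, lactate export, vessel growth and mitochondrial turnover. Much of this control acts on the protein, which arrays do not measure. Mouse epidermis is known to respond to oxygen through this pathway, and the alpha subunit encoded by Hif1a is also made in neutrophils and other immune cells, where cytokine signals raise its transcription.

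Cdsn itself fell by 2.37 log2 units, to 19.3% of its WT level. In KO replicates 1 to 4 it read 10.31, 8.89, 9.82 and 9.49, and in WT replicates 1 to 4 it read 12.05, 11.76, 12.13 and 12.06 (limma adjusted p = 0.00203; exact two-sided permutation p = 0.0286, the smallest that 8 arrays allow). Arrays within a group were not alike. On the first principal component of all probe sets, with 50.4% of the variance, KO replicates 1 and 2 lay at 75.3 and 57.8, KO replicates 3 and 4 at 4.47 and 6.84, WT replicate 1 beside them at -2.60, and WT replicates 2 to 4 at -50.5 to -43.5. Values without WT replicate 1 are therefore given beside those on 8 arrays. The limma fit called 13.1% of all probe sets at an adjusted p below 0.05, 9.91% as higher in KO, which makes 75.7% of the calls. That share was 49.1% after quantile normalization and 53.2% after centring each array on its median.

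All 6 genes were higher in KO, by 0.89 to 1.61 log2 units or 1.86-fold to 3.05-fold, and for each of them the 4 KO arrays lay above the 4 WT arrays. Over all probe sets, 10.1% met the criterion of the authors' table in either direction and 7.63% as higher in KO, while 15.9% had all KO values above all WT values and 21.5% had groups that did not overlap in either direction. Since the table chose the 6 genes, nothing is read from these shares. The direction was the same after quantile normalization and after median centring. The criterion itself was met again by 3 of the 6 genes after quantile normalization and by 0 to 6 of them with 1 array left out, 0 without WT replicate 2. None of the 6 probe sets was in the class that the table marks as matching other transcripts. The distance between the lowest KO and the highest WT array was 0.0091 to 0.49 log2 units, and WT replicate 1 set it for Hif1a, Pgk1, Slc16a3 and Fam162a.

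The promoters of the 6 genes were examined for the core of the hypoxia response element, the sequence that the factor binds. The cores searched were ACGTG and GCGTG on both strands, in windows from 250 bases before to 50 bases after each annotated start in RefSeq (GRCm38.p6). The stretches that hold the matches are shown so that the cores can be read in place. The genes were picked as the factor and oxygen-regulated genes, some of them known targets, so the number of matches is not independent of that choice and is given as a description. Each runs 5′ to 3′ on the strand of the gene, from 20 bases before the first match to 20 bases after the last, with matches in capitals.
Hif1a, chr12:73907712-73907821, plus strand: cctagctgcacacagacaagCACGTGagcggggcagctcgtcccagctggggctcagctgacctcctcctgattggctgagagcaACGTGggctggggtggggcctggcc
Egln3, chr12:54204079-54204123, minus strand: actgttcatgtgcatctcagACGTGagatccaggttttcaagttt
Pgk1, chrX:106186930-106186993, plus strand: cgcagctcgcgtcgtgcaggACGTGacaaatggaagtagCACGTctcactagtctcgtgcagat
Slc16a3, chr11:120949020-120949077, plus strand: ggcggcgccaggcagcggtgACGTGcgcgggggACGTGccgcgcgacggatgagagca
Fam162a, chr16:36071556-36071794, minus strand: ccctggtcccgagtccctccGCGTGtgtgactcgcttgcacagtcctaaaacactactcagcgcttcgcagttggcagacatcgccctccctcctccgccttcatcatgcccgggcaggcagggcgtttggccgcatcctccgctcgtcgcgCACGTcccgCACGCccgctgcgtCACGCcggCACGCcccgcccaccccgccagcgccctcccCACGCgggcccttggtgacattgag
Vegfa, chr17:46025350-46025401, minus strand: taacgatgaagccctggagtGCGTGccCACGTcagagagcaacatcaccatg

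At least 1 match was present for 6 of 6 genes and at least 2 for 5 of them, with 16 matches in all. These counts include Vegfa, whose matches lay only in a window inside the gene. That window lies downstream of the first start and within what is transcribed from it, so its letters need not be promoter sequence. Hif1a held ACGTG on both strands at one place, 135 bases before its start, where the letters form the palindrome CACGTG, which is also an E-box, and once more 70 bases before the start. Pgk1, which encodes the glycolytic enzyme phosphoglycerate kinase, held ACGTG on the strand of the gene 150 bases before the start and on the other strand 131 bases before it. Slc16a3 held it 27 and 14 bases before the start. In Fam162a 1 ACGTG and 5 GCGTG matches were found, 4 of the GCGTG matches on the other strand between 72 and 19 bases before the start. Egln3 held a single match, 229 bases before the start. Vegfa has windows at 2 annotated starts. Its matches lay at the second of them, 7214 bases downstream and inside the gene, and the first held no match. Thus 5 of 6 genes had a match at their most upstream start.

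These cores are common. Among all 32851 promoter windows 43.8% held at least 1 match. Among the 14281 windows with at least 10 CG dinucleotides the share was 68.4%, beside 85.7% of the 7 windows of the 6 genes. The cut-off of 10 is the fewest of a window of the 6 genes with a match. It was set by the Vegfa window inside the gene, and the other windows with a match held 16 to 39. The windows of the 6 genes had a median of 24 CG dinucleotides against 7 over all windows. Among the 1440 windows of other genes that were higher in KO in the authors' table, 38.3% held a match. At least 2 matches were held by 71.4% of the 7 windows of the 6 genes. The share was 20.6% of all windows and 37.8% of those with at least 10 CG dinucleotides. All shares of the 7 windows count the Vegfa window inside the gene as one with matches. ACGTG alone was present in 85.7% of the 7 windows, in 19.6% of all windows and in 28.0% of those with at least 10 CG dinucleotides, and for Vegfa it lay in the window inside the gene. A match is a run of letters and does not show that the factor binds there, and the absence of one at the first start of Vegfa concerns this window alone.

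**Figure D1:**
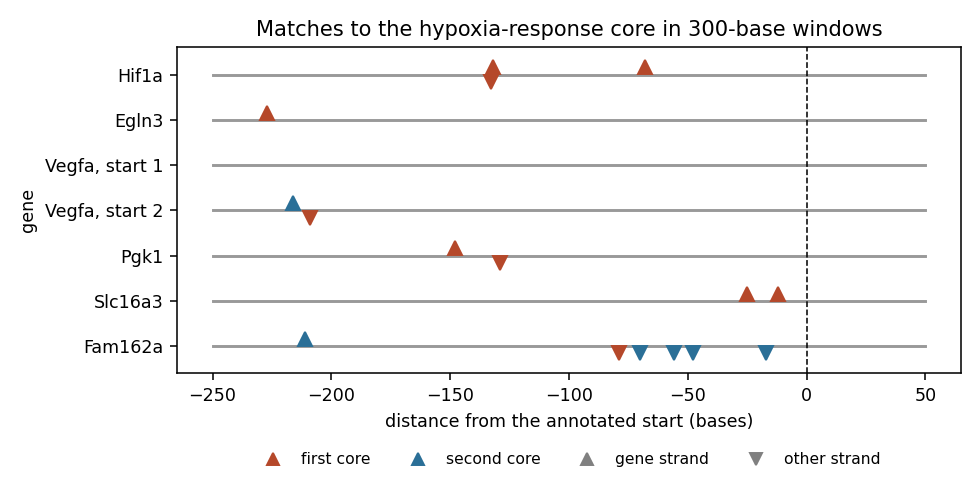
Positions of the cores ACGTG (first core, red) and GCGTG (second core, blue) in the 300-base windows of the 6 genes, against distance from the annotated start in bases; triangles above the line are on the strand of the gene and those below on the other strand. Both matches of Slc16a3 and 5 of the 6 matches of Fam162a lie within 81 bases before the start, and the first start of Vegfa holds none.

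Hif1a, which encodes the oxygen-regulated alpha subunit, read 10.61, 10.33, 9.38 and 9.52 in KO replicates 1 to 4 and 9.37, 9.03, 8.57 and 8.51 in WT replicates 1 to 4, on the log2 scale. WT replicate 1 lay 0.0091 below the lowest KO array, so the groups touched without overlapping, and KO replicates 1 and 2 stood well above the other arrays. The WT mean of 8.87 ± 0.41 went to 9.96 ± 0.60 in KO (SD, n = 4 each), that is by 1.09 log2 units (SE 0.36) or 2.13-fold. Without WT replicate 1 the difference was 1.26 and the distance between the groups 0.35. Without KO replicate 1 the difference was 0.87.

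Egln3 encodes prolyl hydroxylase 3, one of the oxygen-dependent enzymes that mark the alpha subunit for destruction, and is itself a known target of the factor. It read 11.35, 10.50, 10.55 and 10.37 in KO and 9.62, 9.22, 9.81 and 9.88 in WT. The lowest KO array lay 0.49 above the highest WT array, with or without WT replicate 1, and KO replicate 1 stood above the other KO arrays, which lay close together. The difference was 1.06 (SE 0.27) or 2.08-fold, from means of 9.63 ± 0.30 in WT and 10.69 ± 0.44 in KO (SD, n = 4 each). It was 1.05 without WT replicate 1, which was not the highest WT array for this gene, and 0.84 without KO replicate 1.

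Vegfa, the gene of the main growth factor for blood vessels, which keratinocytes secrete, read 9.44, 9.12, 8.54 and 9.01 in KO and 7.86, 8.05, 8.31 and 8.30 in WT. WT replicate 1 was the lowest of all 8 arrays, and KO replicate 3 came nearest to the WT arrays, 0.22 above the highest of them. The difference was 0.89 (SE 0.22) or 1.86-fold, from 8.13 ± 0.22 to 9.03 ± 0.37 (SD, n = 4 each). It was the smallest of the 6 on 8 arrays and was 0.80 without WT replicate 1, which did not set the distance between the groups. Without KO replicate 1 the difference was 0.76. Vegfa lies on chromosome 17, as Cdsn does, and for it an effect of Cdsn loss and of alleles carried along with the floxed gene cannot be told apart.

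Pgk1 makes ATP in glycolysis and is a long-known target of the factor. It read 11.52, 11.22, 10.57 and 10.66 in KO and 10.41, 10.07, 9.79 and 9.91 in WT, with WT replicate 1 lying 0.17 below the lowest KO array. Its difference was 0.95 (SE 0.26) or 1.93-fold, and 1.07 without WT replicate 1, where the distance between the groups was 0.51. Without KO replicate 1 the difference was 0.77. The order of the arrays was close to that for Hif1a, with KO replicates 1 and 2 highest and WT replicates 3 and 4 lowest.

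Slc16a3 encodes monocarboxylate transporter 4, which exports lactate from cells that run on glycolysis. It read 9.32, 8.37, 7.25 and 7.61 in KO and 7.08, 6.44, 6.76 and 6.75 in WT. KO arrays spread over 2.07 log2 units and WT arrays over 0.64, so the rise was large in KO replicate 1 and small in KO replicate 3, which lay 0.17 above WT replicate 1. From WT to KO the mean went from 6.76 ± 0.26 to 8.14 ± 0.91 (SD, n = 4 each), a difference of 1.38 (SE 0.48) or 2.60-fold. Without WT replicate 1 it was 1.49 and the distance between the groups 0.49. Leaving out KO replicate 1 gave 0.99 and leaving out KO replicate 3 gave 1.67.

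Fam162a encodes a mitochondrial protein that responds to low oxygen and has been linked to cell death. It showed the largest difference of the 6, 1.61 (SE 0.45) or 3.05-fold, and stood at rank 81 of 3024 named genes when these were ordered from the largest rise down. It read 11.13, 10.67, 9.76 and 9.97 in KO and 9.68, 8.79, 8.38 and 8.24 in WT. WT replicate 1 stood apart from the other WT arrays and 0.081 below the lowest KO array. Without it the difference was 1.91 and the distance between the groups 0.97. Without KO replicate 1 the difference was 1.36. The other ranks were 121 for Slc16a3, 296 for Hif1a, 323 for Egln3, 452 for Pgk1 and 561 for Vegfa.

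**Figure D2:**
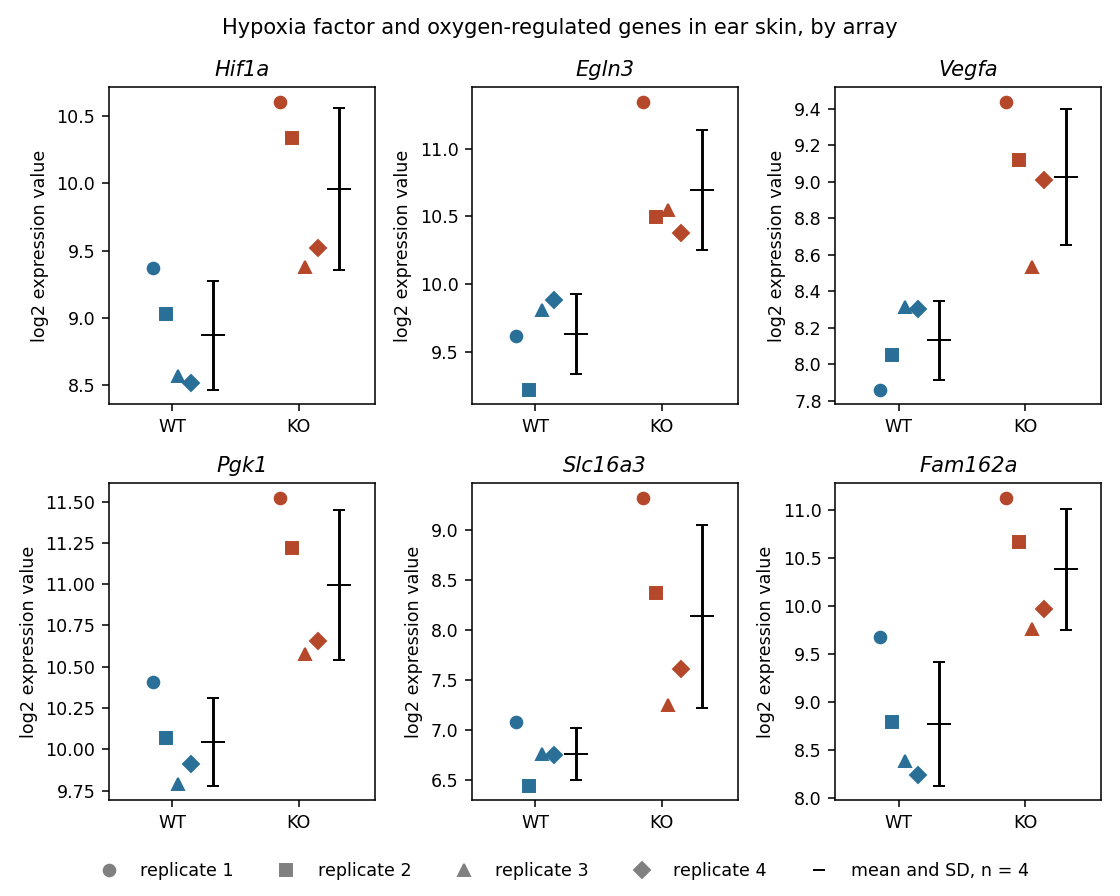
Log2 expression values of the 6 genes on each array, WT in blue and KO in red, with marker shapes for replicates 1 to 4 and the mean with its SD beside each group; each panel has its own axis, which does not start at 0. In Hif1a, Pgk1, Slc16a3 and Fam162a the highest WT array is replicate 1, and in Vegfa that array is the lowest.

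The 6 genes differed in how the arrays of a group were ordered. The size of the spread within groups enters the adjusted p by which the table was made, while the order of the arrays within a group does not. For each gene the group mean was subtracted, and the deviations of the 8 arrays were correlated between genes. The r values describe 8 arrays that share the same tissue pieces and processing, and they carry no test. Hif1a, Pgk1 and Fam162a varied together. Pearson r was 0.98 between Hif1a and Pgk1, 0.96 between Hif1a and Fam162a and 0.95 between Pgk1 and Fam162a, and with any 1 array left out these 3 values stayed at 0.938 or above. In all 3 genes KO replicates 1 and 2 and WT replicate 1 lay above their group means and KO replicates 3 and 4 and WT replicates 3 and 4 below. The first principal component of all probe sets also had KO replicates 1 and 2 and WT replicate 1 highest in their groups. This order of arrays is therefore not particular to these genes. The part of the array-wide pattern in the r values was not tested.

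Egln3 and Vegfa went less closely with Hif1a, Pgk1 and Fam162a. Their r with those genes was 0.20 to 0.45, and their r with each other was 0.63, or 0.26 without KO replicate 1. In KO, Vegfa had the same order of arrays as those genes and differed from them in WT, while Egln3 had another order in both groups. WT replicate 1 deviated by 0.50 for Hif1a, 0.36 for Pgk1 and 0.91 for Fam162a, but by -0.02 for Egln3 and -0.27 for Vegfa. Without that array Vegfa came closer to the first group of genes, with r of 0.67 with Hif1a, 0.75 with Pgk1 and 0.71 with Fam162a, while Egln3 stayed at 0.35, 0.51 and 0.41. Without KO replicate 1 the r with Hif1a, Pgk1 and Fam162a was -0.39, -0.24 and -0.32 for Egln3 and -0.04, -0.02 and -0.23 for Vegfa. Slc16a3 had r of 0.72 to 0.89 with the other 5 genes, but without KO replicate 1 its r was 0.24 with Egln3 and 0.45 with Vegfa. Over the 15 pairs the median r was 0.72, and 0.26 without KO replicate 1. Whether Egln3 and Vegfa differ from the other genes in the order of arrays was not tested.

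**Figure D3:**
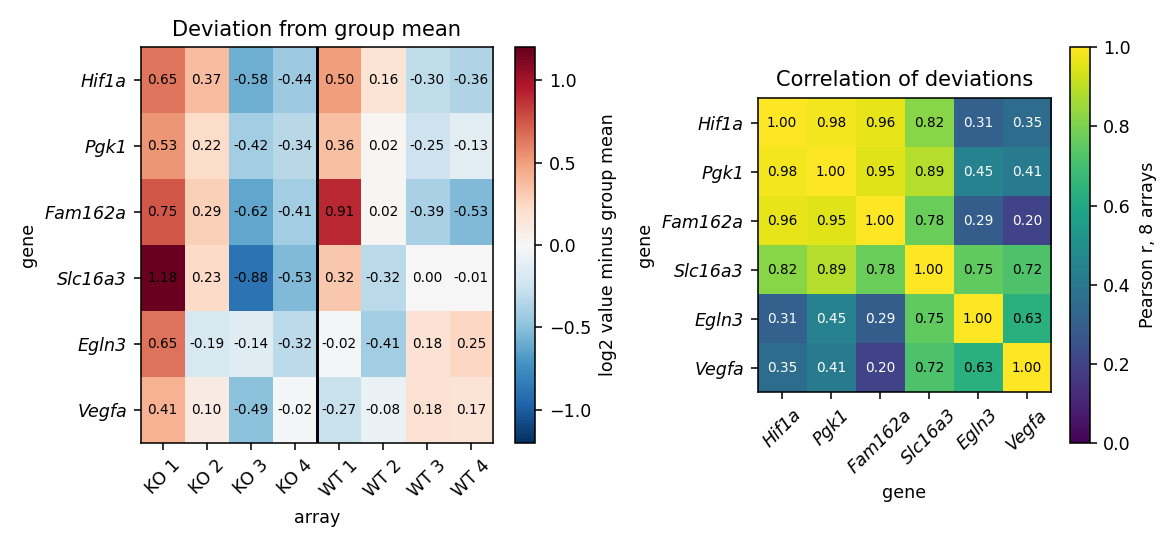
Left, deviation of each array from its group mean in log2 units for the 6 genes, with a line between KO and WT arrays; right, Pearson r of these deviations over the 8 arrays for each pair of genes. Hif1a, Pgk1 and Fam162a form a block with r of 0.95 to 0.98, and Egln3 and Vegfa join it with r of 0.20 to 0.45.

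Among the 3018 other named genes, those whose deviations were most like each of the 6 were not on the pathway lists. For Hif1a they were AI507597 (r = 0.99, 8 arrays) and the RNA-binding protein gene Hnrnpc (0.98). For Pgk1 they were C130071C03Rik (0.99) and Syk (0.98), which encodes a tyrosine kinase of immune receptors. For Fam162a they were the mitochondrial chaperone gene Hspd1 (0.99) and Rrm2 (0.98), a subunit of the enzyme that makes DNA precursors. Those nearest to Slc16a3 were Gm26353 (0.99) and the transcription factor gene E2f5 (0.98), those nearest to Vegfa were 9230112D13Rik (0.995) and the meiotic gene Msh4 (0.96), and those nearest to Egln3 were 1700071G01Rik (0.95), which was lower in KO, and Gm12150 (0.94). With 8 arrays and 3018 genes searched, such r values are a ranking and nothing more.

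The rest of the pathway was looked up by name in the authors' table. Of 90 other genes on 6 lists of oxygen-related genes, 8 were in the table as higher and 1 as lower, which is 8.89% and 1.11%, beside 7.63% and 2.47% of all probe sets. These shares are near the background, but their units differ. Those of the lists are per gene name, whether or not it had a named probe set, and those of the background are per probe set. A listed gene that is missing from the table either failed its criterion or had no named probe set, and its values were not analysed here.

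In the sensing machinery, Tceb2, which encodes elongin B of the von Hippel-Lindau ligase, was the 1 of 15 listed genes in the table. It read 11.78, 11.45, 11.12 and 10.90 in KO and 10.51, 10.33, 10.28 and 10.04 in WT, a difference of 1.02. It too lies on chromosome 17. The genes for the other alpha subunits, the beta subunits, the other prolyl hydroxylases, the von Hippel-Lindau protein and the asparaginyl hydroxylase were not in the table.

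Of 22 other genes of glucose breakdown and lactate transport, 3 were in the table, all higher. Pkm, which encodes the muscle-type pyruvate kinase that skin also uses, read 12.26, 12.22, 11.62 and 11.87 in KO and 11.43, 11.32, 11.10 and 11.10 in WT, a difference of 0.76. Slc16a1, the gene of monocarboxylate transporter 1, differed by 0.69 and the hexokinase gene Hk2 by 0.53, with KO replicate 3 of Hk2 at 8.63 beside WT replicate 3 at 8.60. The glucose transporter gene Slc2a1 and the lactate dehydrogenase gene Ldha, both known targets of the factor, were not in the table.

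The authors' table also carries a pathway annotation, which was consulted after the values had been seen. It placed 7 probe sets in glycolysis and gluconeogenesis. Besides Pgk1, 4 were higher and 2 lower: Pkm, Hk2, the dim probe set of the enolase gene Eno1b (0.65) and the pseudogene Gm5523 (0.61, of the class that matches other transcripts) were higher, and Pgam2 (-0.78) and Fbp2 (-0.56) were lower. Pgam2 and Fbp2 encode the muscle forms of phosphoglycerate mutase and fructose bisphosphatase. Pgam2 read 6.22, 6.00, 6.46 and 6.57 in KO and 6.67, 7.30, 7.26 and 7.16 in WT. The muscle kinase gene Mylk4, the 1 of 8 skeletal muscle markers in the table, was lower by 1.70, with 5.31 to 6.62 in KO and 6.80 to 8.36 in WT. The part of muscle content in the lower values was not tested.

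Of 17 other genes of vessel growth, Pgf was in the table, at 0.54; it encodes placental growth factor, which binds a receptor that it shares with the product of Vegfa. Its probe set was dim, with 5.08 to 5.35 in KO and 4.49 to 4.82 in WT. The receptor genes Kdr and Flt1 were not in the table. Of 10 endothelial markers, the vascular cadherin gene Cdh5 was in the table at 0.60, with 10.05, 10.02, 9.54 and 9.46 in KO and 9.19, 8.91, 9.35 and 9.24 in WT.

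Among the remaining lists, the oxidoreductase gene Ero1l, which serves protein folding in the endoplasmic reticulum, differed by 0.84, and the clock-related repressor gene Bhlhe40 by 0.71. Epo, the erythropoietin gene, differed by 0.59 from a dim level, with 4.81 to 4.95 in WT and 5.14 to 5.79 in KO. Cox4i2, which encodes a subunit of cytochrome oxidase that is induced by low oxygen in lung, was the 1 gene of these lists that was lower, with a difference of -0.56. It read 6.33, 6.51, 6.29 and 6.60 in KO and 6.80, 6.95, 7.29 and 6.94 in WT.

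**Figure D4:**
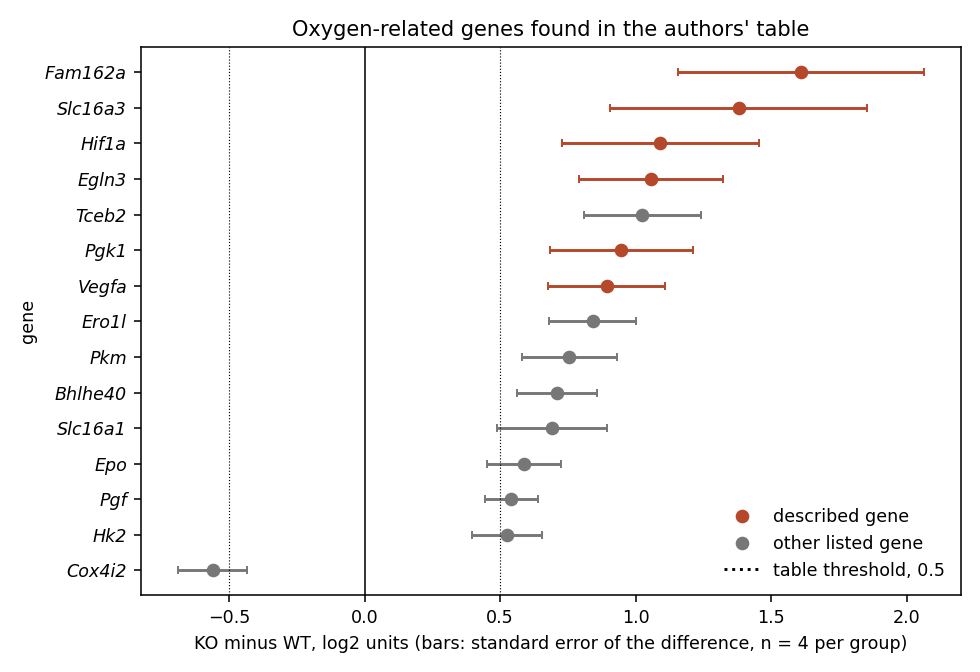
KO minus WT difference in log2 units, with the standard error of the difference (n = 4 per group), for the 6 genes (red) and the 9 other listed genes found in the authors' table (grey); dotted lines mark the 0.5 log2 units that the table requires. Of the 15 genes shown 14 lie to the right of 0, and Cox4i2 lies to the left at -0.56. All were taken from that table, in which 2577 of 3411 probe sets were higher in KO.

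Markers of other cells were looked up in the authors' table as well. Those found there had met its KO against WT criterion, so they differ between the groups by construction. Their levels describe these markers and not all markers of a cell type. Over all probe sets, 7.63% were in the table as higher in KO. Of 10 neutrophil markers, 5 were in the table as higher and the other 5 were not in it. The mean log2 value of those found was 9.57 and 9.22 in KO replicates 1 and 2. It was 7.78 and 7.95 in KO replicates 3 and 4, 7.27 in WT replicate 1 and 4.44 to 5.62 in the other WT arrays. The log2 of their summed level was 12.01 to 13.60 in KO and 7.36 to 11.94 in WT. S100a8, with the highest mean of these markers in both groups, read 11.31 to 12.47 in KO. In WT replicate 1 it read 11.57 and in the other WT arrays 5.65 to 8.03. Which cells made it was not tested. The order of the marker means in KO was also that of Hif1a, Pgk1, Fam162a, Slc16a3 and Vegfa, but not of Egln3. Not every marker had this order. In KO replicates 1 to 4 Ly6g read 7.91, 7.93, 4.72 and 4.62, and Camp read 4.19, 4.63, 3.98 and 3.96. Both were thus highest in KO replicate 2 and lowest in KO replicate 4. WT replicate 1 was the highest WT array for the marker mean, as for Hif1a, Pgk1, Slc16a3 and Fam162a. For Camp it was the lowest WT array, at 3.18. Over WT replicates 2, 3 and 4 the marker mean rose, with 4.44, 4.87 and 5.62. Hif1a fell over these arrays, with 9.03, 8.57 and 8.51, as did Fam162a, while Egln3 rose. Of these arrays WT replicate 2 was the lowest for Vegfa (8.05, 8.31 and 8.30) and Slc16a3 (6.44, 6.76 and 6.75). It was the highest for Pgk1 (10.07, 9.79 and 9.91). Of 7 suprabasal keratinocyte markers, Krt1 and Ivl were in the table, with a mean log2 value of 11.20 to 12.07 in KO, 11.16 in WT replicate 1 and 9.74 to 9.95 in the other WT arrays. Their summed level on the log2 scale was 12.81 to 13.73 in KO and 10.85 to 12.75 in WT. Of 7 erythroid markers 2 were in the table, both dim, with a summed level on the log2 scale of 5.48 to 5.68 in KO and 4.81 to 4.997 in WT. No marker of macrophages, basal keratinocytes, fibroblasts or cartilage was in the table. The part of these cells in the values of the 6 genes was not tested.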

How the data were processed

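Ear skin RNA of 8 mice, 9 µg per sample, was hybridised to Affymetrix Gene Mouse 2.0 ST arrays, per the labels and file headers; tissue stood in preservative for up to 4 weeks. The authors deposited log2 expression values of 33793 probe sets, for which the submitters' processing notes name RMA; its options and version are not given in the sources used here. A second deposited table covers 3411 probe sets, 191 of them without a symbol, and gives group means, the log2 and linear fold of KO over WT, and raw and adjusted p-values. These were the 3411 probe sets that met the stated criterion in the fit below.

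Values were used as deposited. The KO minus WT contrast was estimated in limma 3.58.1 (R 4.3.3) over all probe sets (empirical Bayes, two-sided, Benjamini-Hochberg adjustment over all probe sets, called at adjusted p under 0.05), a script tested on simulated data. Printed standard errors of the 6 genes are those of the plain difference of means. No array lacked a group, and the number of arrays limits the precision. Gene names came from the authors' table, and older symbols were matched through RefSeq synonyms. Promoter windows came from RefSeq, GRCm38.p6. Named genes were Cdsn, the 6 genes, up to 5 genes per pathway list, up to 2 per marker list and the 2 nearest genes by r for each of the 6. Ly6g and Camp are named besides, for their order in KO. The genes, the lists and the rule were chosen with earlier results of these data known. A result that the rule would name is not reported here. Alternatives were other scalings, a filter on dim probe sets, other variance models, a replicate block and leaving out each array. Averaging the probe sets of a gene was not needed, since each of the 6 had 1. Python 3.11.15, pandas 2.3.3, numpy 2.4.6, scipy 1.17.1 and matplotlib 3.10.9 were used.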

Additional observations from a re-analysis of the deposited data

Results flagged for a closer look

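Each named gene was checked for an array far from the other 3 of its group, over 43 genes in 2 groups, or 86 groups, of which chance marks about 5%. Of these 1 was marked. Epo in WT replicate 4 read 4.81 while the other WT arrays read 4.93 to 4.95, a small distance in a group with very little spread. None of the 6 genes was marked; the nearest was Egln3 in KO replicate 1, where the gap to the next array was 0.82 of the range of the KO arrays and just below the critical value.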

How the results depend on the processing

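The 6 genes stayed higher in KO in all 84 combinations of gene and alternative, with differences of 0.76 to 1.91 log2 units. For Slc16a3 the difference went from 1.38 on 8 arrays to 0.99 without KO replicate 1. Their place in the authors' table was less stable. The criterion of the table was met by 3 of the 6 after quantile normalization, 4 after median centring, 2 with dim probe sets left out, 0 without moderation, 5 with trend and robust moderation and 6 with the replicate block. With 1 array left out it was met by all 6 without KO replicate 3 and by 0 without WT replicate 2. Over these 8 fits Egln3 met it in 7, Vegfa in 6, Hif1a, Pgk1 and Fam162a in 3 each and Slc16a3 in 1.

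The number of probe sets called by limma was 4428 on 8 arrays, 718 with dim probe sets left out and between 2161 and 3504 with 1 array left out: leaving out KO replicate 2 gave 2161 and KO replicate 1 gave 2751, and leaving out WT replicates 2, 3 and 4 gave 2281, 2335 and 2883. With the replicate number as a block it was 5150. Deviations of same-numbered arrays correlated at 0.55, -0.06, 0.28 and 0.30 for numbers 1 to 4. KO replicates 1, 3 and 4 correlated best with the WT array of their own number, and KO replicate 2 with WT replicate 1, at 0.30. The limma SE went from 0.30 to 0.12 with the block for Hif1a and from 0.19 to 0.21 for Vegfa. The labels do not say that the numbers pair mice, so the main fit had no block. Whether same-numbered arrays share a pairing or a batch was not tested. Cdsn was called under every alternative, with -2.60 to -2.13 over the fits with 1 array left out. The median r among the 6 genes was 0.57 by Spearman and 0.26 to 0.78 with 1 array left out, the lowest without KO replicate 1. Of the 9 other listed genes in the table, 1 changed by at least 1 log2 unit and 9 remained without the class that matches other transcripts. The causes of these shifts were not tested.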
